A study of Rattus norvegicus with 6 samples.

Results

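Genes that define GABAergic interneurons, the inhibitory neurons of the forebrain, were followed in cultures of the oligodendrocyte lineage. The set holds 9 genes, chosen by symbol from the 37991 genes of the deposited table: Gad1 and Gad2, Slc32a1, the Dlx factors Dlx1, Dlx2, Dlx5 and Dlx6, and the peptide genes Npy and Sst. Of these, 6 passed the filter on low counts and entered the test, as did 17797 genes in all, while Dlx2, Dlx5 and Dlx6 did not. The cultures came from SD rats. In the control group, oligodendrocyte precursors were kept in Raff medium and sampled before differentiation (3 libraries). In the other group, cells had been differentiated by a change of growth factors (3 libraries, called differentiated cells below). Both groups carry replicate numbers 1, 2 and 5, and the titles of numbers 1 and 2 place the groups at day 0 and day 3. The labels name no age and no genetic change, and do not tell whether the replicates came from different cultures or animals. P-values therefore speak of the spread among these 6 libraries only, part of which may be technical.

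GABA is made from glutamate by 2 decarboxylases, GAD67 from Gad1 and GAD65 from Gad2. It is loaded into synaptic vesicles by the transporter VGAT from Slc32a1. In the ventral forebrain, Dlx1 and Dlx2 act early and turn on Dlx5 and Dlx6, and together these homeodomain proteins direct the making and migration of interneurons. Dlx1 and Dlx2 are also known to hold back oligodendrocyte formation in progenitors that both lineages share. NPY and somatostatin are peptides that mark classes of mature interneurons.

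Total counts ran from 55522101 to 79898629 per library, so that 1 CPM (counts scaled to a common library total, with TMM factors) stood for 54.9 to 72.0 reads. Both groups held genes of the oligodendrocyte lineage, but only those of myelinating cells set the groups apart in the test. Of 10 such genes listed, 10 were called higher by edgeR after differentiation (5.65% of all tested genes were). Of 9 tested precursor markers, 0 were called in either direction (median log2 fold change 0.3). With the replicate number as a block, 5 of them were called higher and 2 lower. Mbp, a myelin gene, was at 535 ± 306 CPM (SD, n = 3) before and 8975 ± 1397 CPM after differentiation (adjusted p by edgeR = 0.00166), and Pdgfra, the receptor of precursors, had 427 ± 85.6 CPM before and 365 ± 4.79 CPM after differentiation (adjusted p by edgeR = 0.45, 0.0348 without both replicate 1 libraries). Genes of other cells were present as well: Gfap was at 3195 CPM or more in each library. Libraries numbered 1 stood apart from the others on the second principal component of log2 CPM (42.9 and 74.6, against -55.4 to -5.79), and results are therefore also given without them. In bulk RNA, fewer cells of a type and less RNA per cell cannot be told apart.

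Start regions are shown for 3 of the 4 genes whose counts separated the groups of libraries (the fourth is Gad1). RefSeq windows of build GRCr8, from 250 bases before the annotated start to 50 after it, were found for 6 of the 9 genes. For Gad1, the start used for the window differs from the gene start in the RefSeq gene list. The lines give the 250 bases before the start, with motif matches in capitals.
Dlx1 (GRCr8, chr3:76763614-76763863, plus strand): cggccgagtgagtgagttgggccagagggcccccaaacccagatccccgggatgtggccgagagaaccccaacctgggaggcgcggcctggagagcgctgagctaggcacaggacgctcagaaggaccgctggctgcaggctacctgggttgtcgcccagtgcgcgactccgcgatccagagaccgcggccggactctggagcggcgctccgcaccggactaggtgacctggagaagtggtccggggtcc
Npy (GRCr8, chr4:80211861-80212110, plus strand): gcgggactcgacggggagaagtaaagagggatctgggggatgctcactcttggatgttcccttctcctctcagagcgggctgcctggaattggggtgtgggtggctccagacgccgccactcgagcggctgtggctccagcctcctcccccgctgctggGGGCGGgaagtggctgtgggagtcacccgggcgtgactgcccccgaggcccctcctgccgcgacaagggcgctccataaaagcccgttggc
Sst (GRCr8, chr11:90461296-90461545, plus strand): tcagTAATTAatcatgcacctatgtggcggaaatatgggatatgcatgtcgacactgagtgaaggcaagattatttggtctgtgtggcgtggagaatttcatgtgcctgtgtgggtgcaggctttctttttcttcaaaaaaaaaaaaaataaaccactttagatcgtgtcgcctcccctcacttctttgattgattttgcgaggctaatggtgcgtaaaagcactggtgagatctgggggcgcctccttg
Within the 300-base windows, 5 motifs were searched on both strands: the cyclic AMP response element (CRE) TGACGTCA, the homeodomain core TAATTA, the TATA box TATAAA, the GC box GGGCGG and the E box CAGCTG. None of these matches overlapped another in the 6 windows. The Sst window held TAATTA at bases -246 to -241 and was the 1 window of the 6 with it, where 5.36% of all 33469 windows hold it. It also held the CRE, at bases 3 to 10 after the annotated start, which 1.83% of all windows hold. That site, at chr11:90461540-90461563 of the plus strand, has the CRE in capitals.
Sst CRE: tccttggcTGACGTCAgagagaga
The Npy window held 1 GC box (33.1% of all windows hold one), and the Dlx1 window held 1 in the bases after its start, outside the stretch printed. Gad1 held 1 TATAAA (14.2% of all windows) and 1 GC box, Slc32a1 held 1 GC box, and Gad2 held no match to the 5 motifs. CAGCTG, which 15.1% of all windows hold, was in none of the 6. A match describes the letters only.

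Of the 6 genes tested, 0 passed edgeR's quasi-likelihood test in either direction at an adjusted p under 0.05, where 3.21% of all tested genes were called lower and 5.65% higher. At an unadjusted p under 0.05, 4 of the 6 were lower and 0 higher (10.7% of all genes were lower at that level). DESeq2 called 4 lower (7.05% of all genes it gave an adjusted p). In 4 of the 6, namely Gad1, Dlx1, Npy and Sst, each differentiated library was below each precursor library, which was so for 13.8% of all tested genes. Sst passed the filter through the precursor libraries alone, so that its separation is in part a consequence of having been tested. The same holds for its place among the 4 at an unadjusted p under 0.05 and the 4 called by DESeq2. The set was also chosen with earlier results of these data known. Counts of the set beside shares of all genes therefore do not test whether it fell more often than other genes. With the replicate number as a block, 3 of the 6 were called lower (15.7% of all genes), and the same 3, Npy, Gad1 and Gad2, were called without both replicate 1 libraries (8.11% of all genes were lower there and 8.48% higher).

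**Figure D1:**
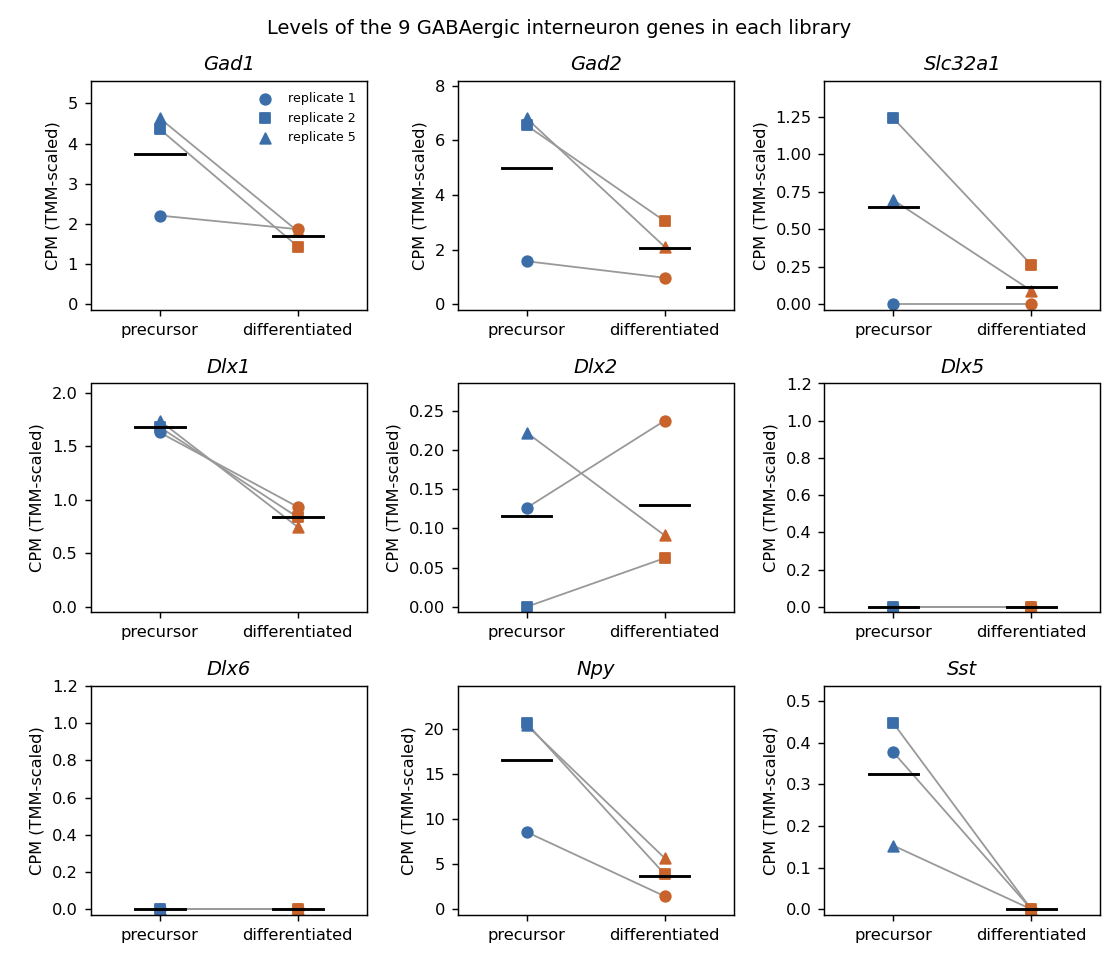
Level of each of the 9 genes in every library, as TMM-scaled CPM on linear axes that differ between panels. Points are libraries, lines join libraries with the same replicate number and black bars are group means. Gad1, Dlx1, Npy and Sst separate the groups, Gad2 and Slc32a1 do not, with both replicate 1 libraries low, and Dlx5 and Dlx6 are at 0 throughout.

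Gad1 was at 2.21, 4.36 and 4.63 CPM in precursors 1, 2 and 5, and at 1.87, 1.44 and 1.82 CPM in differentiated 1, 2 and 5. The groups did not overlap, but precursor 1 lay close to the differentiated libraries. Means were 3.73 ± 1.32 CPM (SD, n = 3) and 1.71 ± 0.233 CPM, a log2 fold change of -1.13 with a standard error (SE) of 0.35 (adjusted p by edgeR = 0.098). The fold within a replicate number was 1.18, 3.03 and 2.54 for numbers 1, 2 and 5, each time lower in differentiated cells. The gene was called lower with the block (log2 fold change -1.07, adjusted p by edgeR = 0.0457) and without both replicate 1 libraries (-1.46, adjusted p by edgeR = 0.0145).

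Gad2 was at 1.58, 6.55 and 6.81 CPM in precursors 1, 2 and 5, and at 0.975, 3.05 and 2.11 CPM in the differentiated libraries. Both replicate 1 libraries were the lowest of their group, and precursor 1 lay below differentiated 2 and 5, so the groups overlapped. The log2 fold change was -1.29 (SE 0.62, adjusted p by edgeR = 0.27). Within numbers, the level was 1.62-, 2.15- and 3.22-fold lower in differentiated 1, 2 and 5. The gene was called lower with the block (log2 fold change -1.18, SE 0.25, adjusted p by edgeR = 0.0142) and without both replicate 1 libraries (-1.36, adjusted p by edgeR = 0.0164).

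Slc32a1, whose product fills vesicles with GABA, had 0, 89 and 50 reads in precursors 1, 2 and 5 and 0, 17 and 5 reads in differentiated 1, 2 and 5. Both replicate 1 libraries held none, which allows up to 0.047 CPM in precursor 1 and 0.042 CPM in differentiated 1 (3 counts, counting error only). Not every 0 may be a true one, since in 115 cases a gene had 0 reads in 1 library beside at least 20 in each of the other 5. In numbers 2 and 5 the level was 4.72- and 7.63-fold lower in the differentiated library, the latter from 5 reads. The log2 fold change of -2.44 had an SE of 1.70 and did not pass (adjusted p by edgeR = 0.455, 0.134 with the block and 0.0938 without both replicate 1 libraries).

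**Figure D2:**
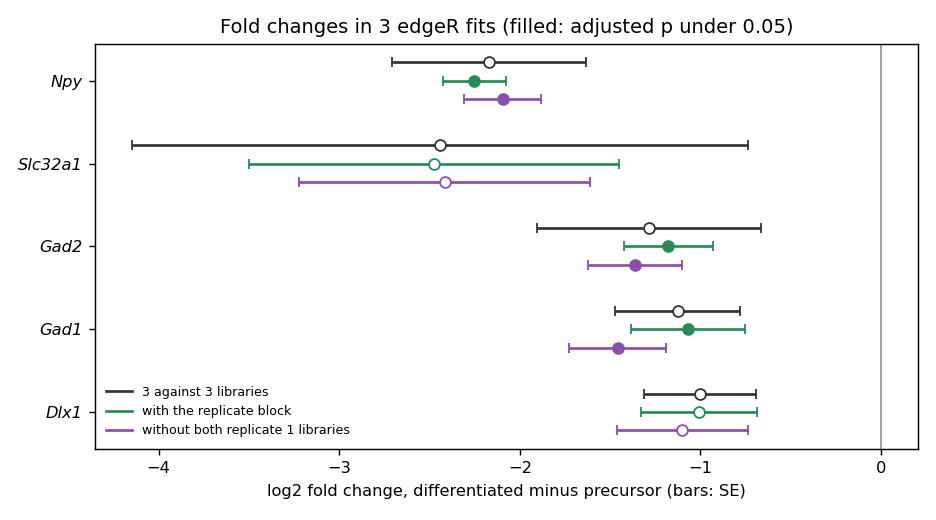
Log2 fold change of 5 tested genes in 3 edgeR fits, with the SE as bars; filled points have an adjusted p under 0.05. Npy lies between -2.25 and -2.10 in the 3 fits and its SE shrinks from 0.54 to 0.17 with the block, whereas Dlx1 lies between -1.10 and -1.0 and is open in each.

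Among the Dlx factors, Dlx1 alone had more than 17 reads in any library. It was at 1.63, 1.68 and 1.74 CPM in precursors 1, 2 and 5 (104, 120 and 125 reads) and at 0.934, 0.837 and 0.746 CPM in the differentiated libraries (67, 54 and 41 reads). The groups were well apart and, unlike Gad2 and Npy, replicate 1 was not low. Means were 1.68 ± 0.0527 CPM and 0.839 ± 0.0937 CPM, a log2 fold change of -1.0 (SE 0.31) that did not pass (adjusted p by edgeR = 0.101, 0.0587 with the block and 0.0907 without both replicate 1 libraries). DESeq2 called it (adjusted p = 0.0323).

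Dlx2, the partner of Dlx1 and its neighbour in the genome, had 8, 0 and 16 reads in precursors and 17, 4 and 5 in differentiated cells. These counts, 0.116 ± 0.111 and 0.13 ± 0.0937 CPM, overlapped and were too low for the test. In the test with no filter, its log2 fold change was 0.17 (adjusted p by edgeR = 0.977). Dlx5 and Dlx6, also neighbours of each other, had 0 reads in all 6 libraries, which allows up to 0.0075 CPM for each over all libraries together (3 counts). Of the other family members, Dlx4 had 0 reads as well, and Dlx3 had 7 and 8 reads in precursors 1 and 2 and none elsewhere.

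Npy was the most abundant of the 9 genes. It was at 8.6, 20.7 and 20.5 CPM in precursors 1, 2 and 5 (548, 1479 and 1477 reads) and at 1.46, 3.92 and 5.70 CPM in differentiated 1, 2 and 5 (105, 253 and 313 reads). The groups did not overlap, and replicate 1 was the lowest library of both. The log2 fold change was -2.17 with an SE of 0.54, just outside the threshold (adjusted p by edgeR = 0.051). Within numbers, Npy was 5.88-, 5.27- and 3.60-fold lower in differentiated 1, 2 and 5. With the block it was called lower (log2 fold change -2.25, SE 0.17, adjusted p by edgeR = 0.000369), as it was without both replicate 1 libraries (-2.10, adjusted p by edgeR = 0.00157).

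The level of Npy is uncertain, because the table holds a near-identical entry, LOC100912228, described as similar to pro-neuropeptide Y. Its reads were 548, 1486 and 1484 in precursors and 105, 256 and 313 in differentiated cells, within 7 reads of Npy in every library. How reads that fit both entries were counted is not given in the sources used here. The 2 entries summed gave the same log2 fold change of -2.17 (adjusted p by edgeR = 0.0502), a computation added after the values were seen. With nearly equal reads in both entries, the sum could hardly give another value. It does not test how shared reads were counted.

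Sst had 24, 32 and 11 reads in precursors 1, 2 and 5, or 0.377, 0.447 and 0.153 CPM, and 0 reads in each differentiated library. A count of 0 allows up to 0.042, 0.046 and 0.055 CPM in differentiated 1, 2 and 5, below each precursor value. Pooled by group, the 67 precursor reads against 3 counts for the differentiated group give a fold of at least 20.6. That bound covers the counting error of the zeros only, not the spread among libraries. Sst also entered the test through its precursor reads alone. It did not pass (adjusted p by edgeR = 0.0514, 0.066 with the block), and DESeq2 called it (adjusted p = 0.00185). Such a pattern was not unique to it: 28 genes had at least 10 reads in each precursor library and 0 in each differentiated one, and 22 genes the reverse.

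**Figure D3:**
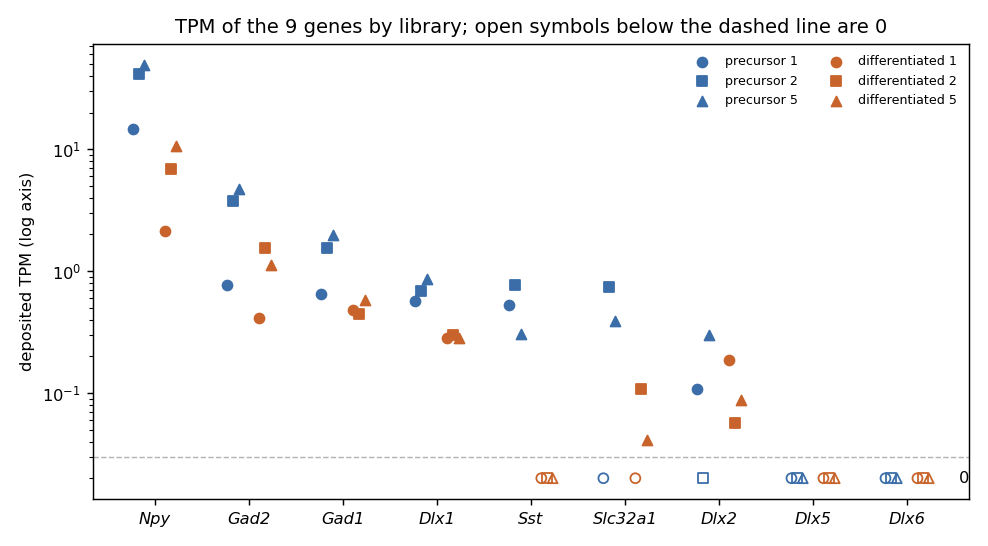
Deposited TPM of the 9 genes in each library, on a log axis; open symbols below the dashed line stand for 0. Genes run from the highest precursor mean (Npy, 35.2 TPM) to Dlx5 and Dlx6 at 0; values span from 49.5 TPM for Npy in precursor 5 to 0.0408 TPM for Slc32a1 in differentiated 5.

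On the TPM scale, which takes length into account and lets genes be compared, the order of mean levels in precursors was Npy (35.2 ± 18.2 TPM, SD, n = 3), Gad2 (3.1 ± 2.07), Gad1 (1.39 ± 0.672), Dlx1 (0.705 ± 0.147), Sst (0.535 ± 0.234), Slc32a1 (0.378 ± 0.371) and Dlx2 (0.135 ± 0.151). Only Npy stood clear: its lowest precursor library, 14.6 TPM, was above the highest of Gad2, 4.73 TPM. Each other neighbouring pair down to Dlx2 overlapped in range, and Dlx5 and Dlx6 were at 0. In differentiated cells the order was Npy (6.54 ± 4.26 TPM), Gad2 (1.03 ± 0.571), Gad1 (0.503 ± 0.0711), Dlx1 (0.287 ± 0.00925), Dlx2 (0.11 ± 0.068) and Slc32a1 (0.0495 ± 0.0543). There Npy and Gad2 did not overlap (2.14 TPM at the lowest against 1.54 TPM at the highest), nor did Gad1 and Dlx1 (0.444 against 0.297 TPM) or Dlx1 and Dlx2 (0.281 against 0.187 TPM), while Gad2 with Gad1 and Dlx2 with Slc32a1 overlapped. Among genes with a read, Npy ranked at the 75.7th to 89.2nd percentile of TPM in precursors and at the 46.2nd to 68.7th in differentiated cells, while Gad1 ranked at the 32.3rd to 41.3rd in precursors. The ratio of Gad2 to Gad1 was 1.19, 2.46 and 2.40 in precursors 1, 2 and 5 and 0.851, 3.46 and 1.95 in differentiated 1, 2 and 5, so the groups overlapped and replicate 1 had the lowest ratio in both.

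The genes did not share 1 profile over the 6 libraries. On log2 CPM, Gad2 followed Slc32a1 (Pearson r = 0.968) and Dlx1 followed Sst (r = 0.93), whereas Slc32a1 and Sst had r = 0.339 and Slc32a1 and Dlx1 r = 0.351. These values describe 6 libraries that share groups, replicate numbers and depth. By the rule for nearest profiles, Dlx1 was most like the pseudogene entry LOC108348221 (r = 0.998) and then Ect2 and Cenpi, genes of cell division (both 0.997), out of 14466 genes of at least 1 CPM. Sst was nearest to the histone entry LOC680322 (0.998), to Cdt1, a licensing factor of DNA replication (0.993), and to Hist1h3a (0.992). Npy was nearest to its copy LOC100912228 (1.00), then to Arv1 and to Tk1, thymidine kinase (both 0.992). Gad2 was nearest to Tmem35 (0.998), Mzf1 (0.997) and Hp1bp3 (0.996), Slc32a1 to C1qtnf3 (0.996), Ppm1f (0.995) and H2afy2 (0.991), and Gad1 to Trpm4 (0.992), Dnajb5 and En2 (both 0.987). With 14466 genes to pick from and 6 libraries, every tested member had a best match of at least 0.992. For Sst, the differentiated values rest on 0 reads and the prior count. A link between the members and their nearest genes was not tested.

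Further factors of the interneuron lineage were set beside the members. The name of the set comes from its genes, and in bulk RNA their reads cannot be assigned to interneurons or to other cells. Of 27 such factors, 18 were tested, 1 rose and 2 fell (median log2 fold change -0.28, against -0.038 over all tested genes). Over all tested genes, 5.65% rose and 3.21% fell, and 1 of 18 is near the former share. Counts of the lists below are to be read beside the same shares, although the lists too were chosen with earlier results of these data known. Meis2, a partner of Dlx proteins in the ventral forebrain, fell from 37.7 ± 8.30 to 17.8 ± 1.32 CPM (log2 fold change -1.08 with an SE of 0.18, adjusted p by edgeR = 0.0128). Etv1 fell from 61.2 ± 6.16 to 39.2 ± 3.16 CPM (adjusted p by edgeR = 0.0218), and Pbx3 rose from 13.2 ± 1.53 to 40.8 ± 9.59 CPM (adjusted p by edgeR = 0.00407). The count of those that fell was 0 without precursor 2, without differentiated 2 or without differentiated 5 and 1 without precursor 5. With the block 3 rose and 4 fell (14.9% and 15.7% of all genes). The most abundant were Zeb2, Sox6 and Etv1, which cells of the oligodendrocyte lineage also express. Six3 and Dlx4 had 0 reads. Nkx2-1 and Lhx6, which set the identity of interneurons from the medial ganglionic eminence and were looked up after their values were seen, were at most at 0.155 and 0.488 CPM in a library. Both maxima were in differentiated libraries. Lhx6 had 13, 0 and 0 reads in precursors and 35, 14 and 6 in differentiated cells (log2 fold change 2.0, SE 1.61, adjusted p by edgeR = 0.523). Nkx2-1, not tested, had 2, 0 and 0 reads against 2, 10 and 5.

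**Figure D4:**
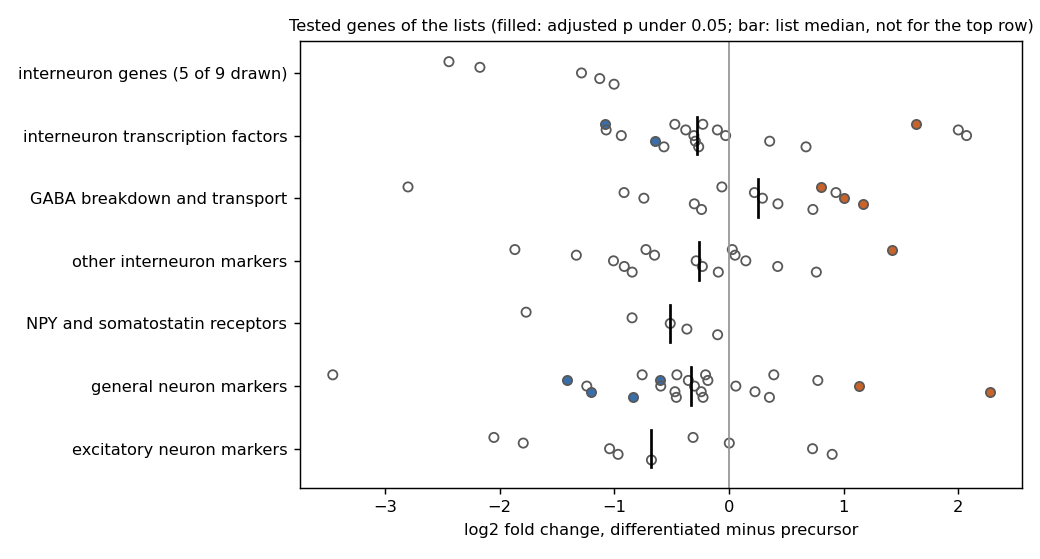
Log2 fold change of the tested genes of 7 lists, except Sst, which was tested (-7.44) but is not drawn. Filled points passed edgeR's test and bars are list medians, with no bar in the top row, that of the members. The top row has no filled point, the row of GABA breakdown and transport has 3 genes that rose, and the row of general neuron markers has 2 that rose and 4 that fell.

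Levels of other markers of interneuron classes ran from 0 reads to 82.6 CPM over all libraries. Of 25, 16 were tested, 1 rose and 0 fell (median log2 fold change -0.26). Vip, Crh and Chrna2, which mark classes of interneurons, had 0 reads in all libraries, and 13 of the 25 stayed under 1 CPM in every library. Cnr1, the cannabinoid receptor, rose from 4.41 ± 0.959 to 11.9 ± 1.65 CPM (1.43 on the log2 scale with SE 0.23, adjusted p by edgeR = 0.0102); without differentiated 2 or differentiated 5 no marker was called, and with the block 3 were. The most abundant, Cxcr4 (82.6 CPM over all libraries), Calb1 (57 CPM) and Nxph1 (24.1 CPM), did not pass. Cxcr4 was higher in each differentiated library than in any precursor library (log2 fold change 0.43, adjusted p by edgeR = 0.0649) and was called higher with the block (0.00608) and without both replicate 1 libraries (0.039).

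Receptors of the 2 peptides were scarce. Of the 10 listed receptor genes, 9 were found in the table and 5 were tested, 0 of them called (median log2 fold change -0.51). Npy2r, Npy4r and Sstr5 had 0 reads in all libraries. Npy1r was at 1.04, 0.545 and 1.1 CPM in precursors and at 0.348, 0.356 and 0.0728 CPM in differentiated cells, groups that did not overlap (log2 fold change -1.77, SE 0.72, adjusted p by edgeR = 0.197). Sstr4 (1.03 ± 0.503 and 0.57 ± 0.235 CPM) and Sstr1 (0.555 ± 0.0617 and 0.39 ± 0.127 CPM) overlapped.

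Genes that break down or carry GABA, glutamate and glutamine, many of which glia also use, gave calls in 1 direction, higher. Of 14, all tested, 3 rose and 0 fell (median log2 fold change 0.26). Glul, glutamine synthetase, rose from 434 ± 29.4 to 869 ± 73.4 CPM (1.0 on the log2 scale with SE 0.11, adjusted p by edgeR = 0.00238). Slc38a3, a glutamine transporter, rose from 40.4 ± 5.51 to 90.9 ± 12.7 CPM (adjusted p by edgeR = 0.00508), and Slc1a1, a glutamate transporter, from 46.5 ± 9.41 to 81.1 ± 6.40 CPM (adjusted p by edgeR = 0.0296). With the block 7 rose and 3 fell, and 1 fell without precursor 1. A further 2 genes of this list, outside the naming rule, were looked up after their values were seen. Abat, the transaminase that degrades GABA, had a log2 fold change of 0.93 (adjusted p by edgeR = 0.0533, 0.00175 with the block and 0.0436 without both replicate 1 libraries). Slc6a13, the GABA transporter GAT2, was at 1.35, 7.32 and 9.57 CPM in precursors and 0.293, 1.19 and 1.15 CPM in differentiated cells (log2 fold change -2.80, adjusted p by edgeR = 0.0802, 0.000671 with the block and 0.00103 without both replicate 1 libraries). Astrocyte markers moved with this group: 7 of 11 tested rose (4 without precursor 2, precursor 5, differentiated 2 or differentiated 5) and 0 fell. Their summed levels were 4166 to 5930 CPM in precursors and 7836 to 8155 CPM in differentiated cells. Gfap, not called (adjusted p by edgeR = 0.0849), gave most of these sums, at 3195 to 4812 CPM in precursors and 5702 to 6114 CPM in differentiated cells. The part of astrocyte markers in the result was not tested.

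General neuron markers gave a mixed picture beside the low interneuron genes. Of 24, all tested, 2 rose and 4 fell (median log2 fold change -0.33). Gap43, a growth cone protein, fell from 321 ± 35.2 to 139 ± 18.3 CPM (adjusted p by edgeR = 0.00283), Elavl4 from 24.9 ± 3.94 to 9.33 ± 1.23 CPM (adjusted p by edgeR = 0.00445), Stmn2 from 23.1 ± 4.0 to 12.9 ± 0.996 CPM and Nsg2 from 187 ± 25.8 to 123 ± 15.6 CPM. Elavl3, an RNA-binding protein of the same family as Elavl4, rose from 18.5 ± 3.22 to 40.7 ± 2.71 CPM (adjusted p by edgeR = 0.00575), and Tagln3 rose from 4.54 ± 1.79 to 22 ± 3.59 CPM (adjusted p by edgeR = 0.00668). The count of those that fell was 2 without precursor 2, precursor 5, differentiated 1 or differentiated 5. Rbfox3, which encodes the neuronal nuclear protein NeuN, was at 0.392, 1.37 and 1.31 CPM in precursors and 0.585, 0.558 and 0.673 CPM in differentiated cells, with precursor 1 the lowest of all (adjusted p by edgeR = 0.484). Tubb3 was at 84.0, 188 and 191 CPM in precursors and 132, 90.9 and 111 CPM in differentiated cells (log2 fold change -0.47, adjusted p by edgeR = 0.429). Without both replicate 1 libraries it was called lower (-0.90, adjusted p by edgeR = 0.00447), as were 6 neuron markers in all.

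**Figure D5:**
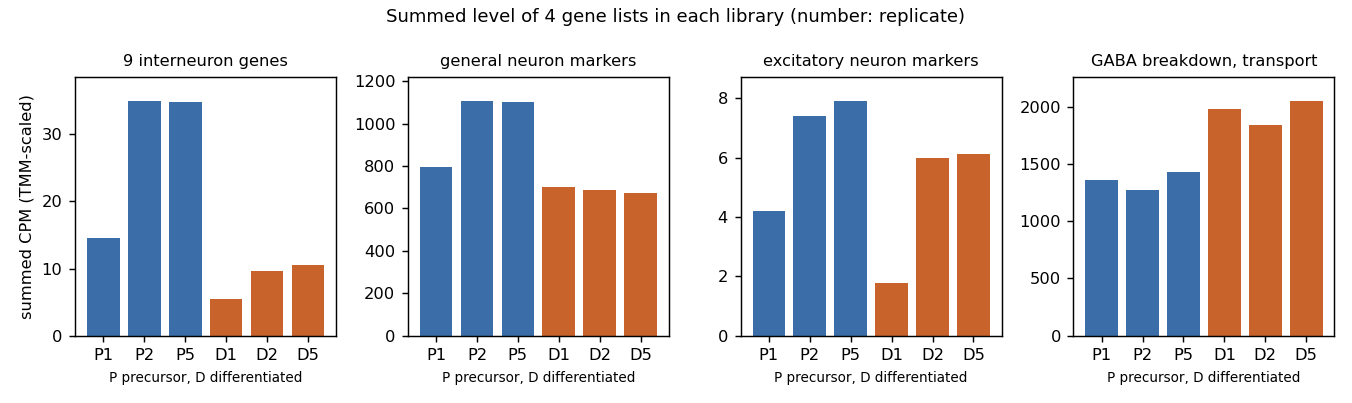
Summed CPM of 4 lists in each library, on linear axes from 0 that differ between panels; blue bars are precursors, orange bars differentiated cells. The sum of the 9 interneuron genes is 14.5 to 35.0 CPM in precursors and 5.48 to 10.6 CPM in differentiated cells. Much of this sum is Npy, with 8.6, 20.7 and 20.5 CPM in precursors 1, 2 and 5. In differentiated 1, 2 and 5, Npy gives 1.46, 3.92 and 5.70 CPM of it. Replicate 1 is lowest in both groups for this sum and among the excitatory markers.

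The summed level of the neuron markers was 795, 1108 and 1101 CPM in precursors 1, 2 and 5 and 703, 688 and 671 CPM in differentiated 1, 2 and 5. Markers of excitatory neurons summed to 4.2, 7.39 and 7.92 CPM and to 1.76, 5.98 and 6.13 CPM, with both replicate 1 libraries lowest. Of 15 excitatory markers, 9 were tested and 0 passed (median log2 fold change -0.68), and the vesicular glutamate transporter gene Slc17a7 was at most at 0.0699 CPM in precursors and at 0, 1.12 and 0.437 CPM in differentiated cells. Low values of Gad2, Npy and Slc32a1 in replicate 1 came with low excitatory sums. The same libraries had high microglial sums (1007 and 767 CPM, against 400 to 426 CPM in the others) and high vascular and fibroblast sums (304 and 188 CPM, against 43.5 to 89.8 CPM), while the vascular genes Cldn5 and Rgs5 had 0 reads. The part of these cells in the levels of the interneuron genes was not tested.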

How the data were processed

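RNA of 6 libraries was sequenced. Per the labels' protocols, RNA was taken with ISOGEN, and an Illumina kit for stranded total RNA was used for the libraries. Per the submitters' processing notes, reads were handled with HISAT2 2.1.0, StringTie 2.1.3b, Trimmomatic 0.38 and bcl2fastq 2.20.0. They name the human build GRCh38, although the table has rat gene identifiers. The sources used here do not give the rat build or the strand setting. The authors deposited read counts (whole numbers, not normalized), FPKM (not used here) and TPM (scaled by the authors by length to a fixed total).

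Groups came from the condition label. Counts were tested, 3 against 3, with edgeR 4.0.16 in R 4.3.3 (quasi-likelihood, TMM, that package's low-count filter, robust estimation). P-values were adjusted by Benjamini-Hochberg over 17797 genes, and every adjusted p is from this test unless another tool is named. The SE is the log2 fold change over the square root of F. CPM values are TMM-scaled, log2 CPM used a prior count of 2, and a count of 0 was given a floor of 3 counts.

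Alternatives were no filter, other scalings, DESeq2 1.42.0, limma 3.58.1 on log2(TPM + 1), no robust estimation, the replicate block and leaving out libraries. Same-numbered libraries deviated together (correlations across genes of 0.419, 0.198 and 0.272 for numbers 1, 2 and 5), so the numbers were taken to pair the libraries in the block alternative only, while the main test has no block; the labels say nothing of pairing. Named genes were the 9 members, the called genes with the largest changes of each list (up to 4 per direction), the 3 most abundant of each list, a few checks of the label, and the 3 genes nearest in profile to each tested member. The members and lists were chosen with earlier results of these data known. Sequences are from RefSeq, and all 9 gene identifiers were found in its gene table of GRCr8.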

Additional observations from a re-analysis of the deposited data

How the results depend on the processing

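The 6 tested genes kept a negative log2 fold change in every alternative run. For Sst, with 0 reads in each differentiated library, no other sign was possible. Sst, tested through its precursor reads alone, is also part of the counts that follow. It is the 1 gene called with library size alone, and is among those called with DESeq2, no robust estimation and limma. Their number called lower, 0 of 6, was 4 with DESeq2, 3 with the replicate block, 3 with both replicate 1 libraries left out, 2 with no robust estimation, 2 by limma-trend on log2(TPM + 1), 1 with library size alone as scaling, and 0 to 2 when 1 library was left out (2 without precursor 1). None was called higher in any. Over the alternatives, the edgeR, limma or DESeq2 adjusted p ranged from 0.000369 to 0.168 for Npy, 0.00185 to 0.188 for Sst, 0.0145 to 0.299 for Gad1, 0.0142 to 0.492 for Gad2, 0.0323 to 0.266 for Dlx1 and 0.0938 to 0.755 for Slc32a1. On log2(TPM + 1), which shrinks low genes, the log2 fold change was -0.63 for Gad1, -0.40 for Dlx1, -0.36 for Slc32a1 and -0.61 for Sst.

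Over all genes, 1005 were higher and 571 lower. The counts were 2643 and 2797 with the replicate block, 1521 and 1252 with DESeq2, 1529 and 1462 with both replicate 1 libraries left out, 678 higher and 1006 lower with library size alone, and 487 higher and 1000 lower by limma-trend on log2(TPM + 1). With 1 library left out they ran from 484 to 947 higher and from 148 to 561 lower. The median log2 fold change over all genes was -0.188 with library size alone. In the lists, DESeq2 called 2 factors, 6 genes of GABA handling and 2 interneuron markers higher (1, 3 and 1 in the edgeR test) and 2 of GABA handling lower (0). By limma on TPM, 1 factor was lower (2), 1 gene of GABA handling was higher and 1 lower, 0 markers were higher, and of neuron markers 1 was higher (2). With both replicate 1 libraries left out, 6 of GABA handling were higher and 3 lower, 2 markers higher and 1 excitatory marker lower, as was 1 without precursor 1. Astrocyte markers called higher numbered 4 with library size alone and 2 by limma (7). Depth limits Dlx2, Sst and Slc32a1, which rest on at most 89 reads in a library.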
